A study of Mus musculus with 2 samples.

Results

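The cells described here are retinal myeloid cells with high transcript levels of major histocompatibility complex (MHC) class II genes and low levels of perivascular macrophage genes. They were selected on measured values. A cell belonged when its unique molecular identifiers (UMIs, counts of captured transcript molecules) summed over Cd74, H2-Aa, H2-Ab1 and H2-Eb1 reached 100 per 10000, and those summed over Mrc1, F13a1, Cd163, Lyve1 and Cbr2 stayed under 10 per 10000. This gave 290 class II-high cells of 6799 in the light-damaged library and 122 of 3948 in the control library. The barcodes counted had 300 genes or more, and mitochondrial transcripts gave no more than 10% of their UMIs. Class II and perivascular levels chose the cells, so they are given as a description.

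The retinas of both libraries were from CB6F1 males, 8 months old, with a Cx3cr1-YFP reporter. The reporter labels cells that use the gene of the fractalkine receptor. For the light-damaged library the labels describe dark adaptation overnight, pupils dilated with atropine and phenylephrine, exposure to 10 klux from LEDs for 4 h, and a recovery of 5 days. The control library had no light damage, and the labels give the same treatment text for it, so whether the control mice were dark-adapted and dilated is not given in the sources used here. Retinas of 5 to 8 mice were pooled per group, live YFP+ cells were sorted, and each pool gave 1 library by the 10x Genomics 3' method. The reporter is not particular to microglia, so the gate could also hold other macrophages and monocyte-derived cells. With 1 library per group, group and library cannot be told apart and no test between groups was possible. All intervals are exact 95% intervals and cover counting error only.

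MHC class II molecules present peptides from the endosome to CD4 T cells. The α and β chains (H2-Aa, H2-Ab1, H2-Eb1) assemble with the invariant chain Cd74, H2-DM exchanges the peptide, and the coactivator Ciita drives the genes together. Resting microglia carry little class II, whereas dendritic cells, some monocyte-derived macrophages and some perivascular macrophages of the nervous system carry much. Ccr2, the receptor through which monocytes leave the bone marrow and enter inflamed tissue, is a common marker of recent blood origin.

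The 3 chain genes lie together on mouse chromosome 17 (GRCm38, GENCODE M21). H2-Aa, a protein-coding gene on the minus strand, spans 34282744 to 34287823. H2-Ab1 spans 34257689 to 34269419 and H2-Eb1 spans 34305867 to 34316674, both on the plus strand. The H2-DM genes, which the selection did not use, lie in the same region on the plus strand, with H2-DMb1 at 34153072 to 34160230 and H2-DMb2 at 34143307 to 34151555. Promoters of a pair of genes from the rule and of the H2-DM β chain genes are shown because those transcripts were high in the same cells. Each line holds the 150 bases before the RefSeq start (GRCm38.p6), read 5′ to 3′ on the gene's strand. Capitals mark a stretch of the X box, searched as AACNNATGATG, and the Y box, searched as GATTGG, each on both strands.
H2-Aa, chr17:34287824-34287973, minus strand: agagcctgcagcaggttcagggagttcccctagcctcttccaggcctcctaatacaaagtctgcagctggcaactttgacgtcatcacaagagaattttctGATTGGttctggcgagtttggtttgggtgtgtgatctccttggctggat
H2-Eb1, chr17:34305717-34305866, plus strand: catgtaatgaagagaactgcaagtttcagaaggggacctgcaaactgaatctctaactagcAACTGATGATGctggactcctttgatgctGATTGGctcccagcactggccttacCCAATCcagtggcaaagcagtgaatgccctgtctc
H2-DMb1, chr17:34153041-34153190, plus strand: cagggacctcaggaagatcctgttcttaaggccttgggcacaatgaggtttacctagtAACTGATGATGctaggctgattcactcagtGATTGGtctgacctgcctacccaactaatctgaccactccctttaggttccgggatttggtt
H2-DMb2, chr17:34145099-34145248, plus strand: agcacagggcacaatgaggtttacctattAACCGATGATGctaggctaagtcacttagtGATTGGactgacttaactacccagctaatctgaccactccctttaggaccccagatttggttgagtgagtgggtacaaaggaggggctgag

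Among 32851 mouse promoters of 300 bases, 45 (0.137%) held the X stretch and 5292 (16.1%) held the Y stretch. The X stretch followed by the Y stretch within 30 bases was found in 4 promoters, those of H2-Eb1, H2-DMb1, H2-DMb2 and H2-Ob, which is 0.0122% of all. The gap was 18 bases in H2-Eb1 and 19 bases in both H2-DM β genes. The stretches do not overlap each other, and their letters were chosen with these promoters in view. The H2-Aa promoter held the Y stretch and not this form of the X stretch. H2-Ab1 is named only.

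The light-damaged matrix held 58187149 UMIs over 6821 barcodes and the control matrix 20056338 UMIs over 4003 barcodes. Class II-high cells had a median of 8235 UMIs and 1950 genes in the light-damaged library, against 6799 UMIs and 1718 genes in the control library. The libraries shared 47 barcodes. Of the class II-high cells, 2 light-damaged and 4 control cells carried such a barcode, and 1 barcode was class II-high in both. Doublets were kept. Scrublet's automatic threshold marked 0 barcodes in either library, and leaving out the highest scores took 14 class II-high cells (4.83%) from the light-damaged library and 1 (0.820%) from the control library. Gngt1, a rod transducin gene that myeloid cells should lack, had a UMI in 6.21% of light-damaged and 24.6% of control class II-high cells, and the source of these UMIs was not tested.

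Class II-high cells made up 4.27% (3.80 to 4.77) of the light-damaged library and 3.09% (2.57 to 3.68) of the control library. Their class II sum had a median of 386 UMIs per 10000 (range 101 to 1324) in the light-damaged library and 402 (range 109 to 973) in the control library. Cd74 reached 21673 CPM (UMIs per 1000000, from UMIs summed over the cells of a set) in light-damaged class II-high cells and 24606 CPM in control ones. In light-damaged class II-high cells H2-Aa stood at 7868 CPM, H2-Ab1 at 6617 CPM and H2-Eb1 at 5977 CPM, and in control ones at 5946, 5785 and 4277 CPM. Every class II-high cell of both libraries had a UMI of Cd74, H2-Aa and H2-Ab1. In class II-low cells with microglia genes, by contrast, Cd74 stood at 83.8 CPM in the light-damaged library and 99.2 CPM in the control library.

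Cells lay on both sides of the threshold, which is a set limit and not a gap in the values. The highest class II sum below it was 95.9 per 10000 in the light-damaged library and 98.2 in the control library, and the lowest sum above it was 101 in the light-damaged library and 109 in the control library. Between 80 and 90 there were 12 light-damaged and 6 control cells. Between 90 and 100 there were 3 light-damaged cells and 1 control cell, and between 100 and 110 there were 6 light-damaged cells and 1 control cell. The perivascular limit removed no class II-high cell of the light-damaged library and 10 of the control library.

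**Figure D1:**
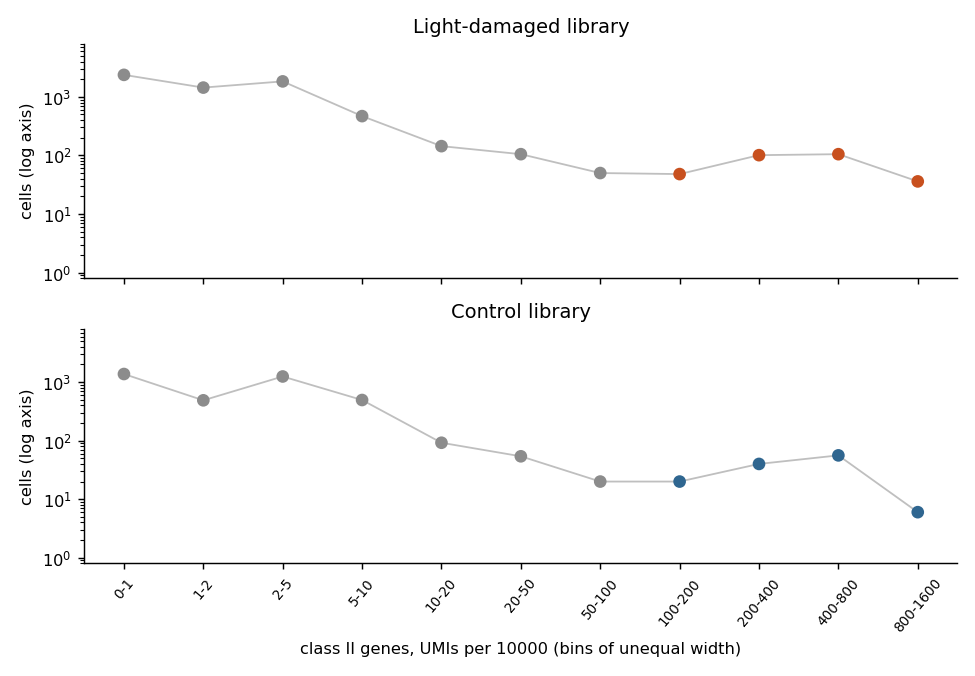
Number of cells (log axis) by the summed UMIs of Cd74, H2-Aa, H2-Ab1 and H2-Eb1 per 10000, in bins of unequal width, for cells under the perivascular limit. Coloured points are the class II-high cells, with 105 light-damaged and 56 control cells in the bin from 400 to 800, and 48 and 20 in the narrower bin from 100 to 200.

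The rest of the class II pathway was read in genes that the selection did not use. Ciita, the class II coactivator, was at 11.8 CPM (31 UMIs) in light-damaged class II-high cells and 8.10 CPM (7 UMIs) in control ones. In the class II-low cells low in microglia genes, which had a class II sum under 20 and a microglia sum under 10 per 10000, Ciita had 0 UMIs in both libraries. No perivascular limit was set for these class II-low cells. Their perivascular sums reached 62.7 per 10000 in the light-damaged library and 39.7 in the control library. H2-DMb1, a chain of the peptide exchanger H2-DM, was at 528 CPM (501 to 557) in light-damaged class II-high cells, against 54.6 CPM in the class II-low cells. In the control library H2-DMb1 was at 476 CPM (431 to 524) in class II-high cells, against 26.8 CPM in class II-low cells. The ratios were 9.68 (8.78 to 10.7) in the light-damaged library and 17.7 (11.5 to 29.0) in the control library. H2-DMb2 was at 141 CPM in light-damaged and 178 CPM in control class II-high cells, but the H2-DMb1 and H2-DMb2 sequences are near-identical and their division of reads is uncertain. H2-DMa, the α chain, was at 504 CPM in light-damaged class II-high cells, against 224 CPM in class II-low cells, and at 543 CPM in control class II-high cells, against 139 CPM in class II-low cells.

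Ctss, the cathepsin that trims the invariant chain, stayed within 2-fold, at 5791 CPM in class II-high and 5951 CPM in class II-low cells of the light-damaged library, and at 5160 CPM in class II-high and 2945 CPM in class II-low cells of the control library. H2-Oa and H2-Ob, chains of the H2-DM antagonist H2-DO, stood between 5.79 and 17.4 CPM in class II-high cells of both libraries. H2-Eb2 had 0 UMIs in class II-high cells of both libraries. The other pathway genes were read with the same filter as all genes, at least 50 CPM in either group and a 2-fold ratio. Class II-high over class II-low cells, 3 of the 8 other class II pathway genes tested were 2-fold higher in the light-damaged library, where 2.67% of all 2509 genes tested were. Among control cells 3 of 9 were 2-fold higher, where 5.27% of 3016 genes tested were. In both libraries these were H2-DMa, H2-DMb1 and H2-DMb2. Through the class II-high cells alone, H2-DMb2 passed the 50 CPM minimum in both libraries and H2-DMb1 in the control library. March1, which marks class II proteins for removal, was 2-fold lower in the control library.

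Class II-high cells were set against class II-low cells with microglia genes. Those cells were chosen by a summed P2ry12, Tmem119, Siglech, Gpr34 and P2ry13 of 10 or more per 10000 UMIs, so the levels of these 5 genes in them are a description. P2ry12, the purinergic receptor that marks homeostatic microglia, was at 127 CPM (114 to 141) in light-damaged class II-high cells and 1195 CPM in the cells with microglia genes of that library. For control cells P2ry12 was at 302 CPM (267 to 341) in class II-high cells and 2415 CPM in the cells with microglia genes. Among genes the choice did not use, Sall1, a transcription factor that fixes microglial identity, was at 7.96 CPM in light-damaged class II-high cells against 111 CPM in cells with microglia genes, and at 9.26 CPM in control class II-high cells against 107 CPM. Sparc, a secreted matrix protein of microglia, was at 214 CPM in light-damaged class II-high cells against 2649 CPM in cells with microglia genes, and at 175 CPM in control class II-high cells against 1884 CPM.

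Perivascular cells, which should lack the 5 genes, also had UMIs of them. Cells with a perivascular sum of 10 or more numbered 87 in the light-damaged library and 59 in the control library. They were chosen without regard to class II or microglia genes, so they overlap the class II-low cells low in microglia genes. Of the control ones, 10 were at or over the class II threshold. P2ry12, Tmem119, Siglech, Gpr34 and P2ry13 summed to 615 CPM (585 to 646) in light-damaged class II-high cells and 556 CPM (507 to 609) in perivascular cells, intervals that overlap. Control class II-high cells had a sum of 1213 CPM (1141 to 1289), and control perivascular cells a lower one of 995 CPM (900 to 1097), with intervals that do not overlap. P2ry12 had a UMI in 42.4% of light-damaged class II-high cells (median 8235 UMIs) and 51.7% of perivascular cells (median 9534 UMIs), and in the control library in 63.9% (median 6799 UMIs) and 67.8% (median 7010 UMIs). Each cell was also thinned to 2000 UMIs, which left out shallower cells and kept 118 of 122 control class II-high cells and 54 of 59 control perivascular cells, and every light-damaged cell of both sets. The thinned P2ry12 shares were 19.7% and 26.4% in the light-damaged library, and 35.6% and 27.8% in the control library. The light-damaged P2ry12 share was below the perivascular one in both readings and is not read as expression. The control share was below it before thinning and above it after, and the part of free RNA in it was not tested. Tmem119 differed from the others in the light-damaged library, with a UMI in 58.6% of class II-high cells and 27.6% of perivascular cells, and 31.7% and 11.5% after thinning.

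Of the 5 microglia rule genes, Siglech, P2ry12, Gpr34 and P2ry13 were 2-fold lower in light-damaged than in control class II-high cells. Of all genes tested there, 11.7% were 2-fold lower. P2ry12 and P2ry13 were 2-fold lower in cells with microglia genes too. Siglech is a lectin of microglia and plasmacytoid dendritic cells. It was at 77.3 CPM (67.1 to 88.7) in light-damaged class II-high cells and 341 CPM (304 to 383) in control ones, 4.42-fold lower (3.68 to 5.30) in the light-damaged cells. Cells with microglia genes had Siglech at 539 CPM in the light-damaged library and 828 CPM in the control library, 1.54-fold lower. Perivascular cells had 74.4 CPM in the light-damaged library and 218 CPM in the control library. Siglech thus had about the same level in class II-high and perivascular cells of the light-damaged library, and a higher level in class II-high than in perivascular cells of the control library.

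Ccr2, Plac8, Ms4a4c and S100a6 of the monocyte list were higher in light-damaged than in control class II-high cells. Each reached 50 CPM in the light-damaged cells alone, so their number is no result. Ccr2, the chemokine receptor of classical monocytes, had a UMI in 184 of 290 light-damaged class II-high cells (63.4%, 57.6 to 69.0) and in 2 of 122 control ones (1.64%, 0.199 to 5.80). After thinning to 2000 UMIs the shares were 27.9% and 0.847%. Its level was 162 CPM (147 to 178) in light-damaged and 6.94 CPM (2.55 to 15.1) in control class II-high cells, a ratio of 23.3 (10.6 to 63.9). Of the 6 control UMIs, 5 were in 1 cell, and with control cells held to the lowest depth of the light-damaged library the control level was 1.19 CPM. Within the light-damaged library Ccr2 stood at 39.0 CPM in the class II-low cells low in microglia genes, 14.2 CPM in perivascular cells and 4.09 CPM in cells with microglia genes. In the control library it was at 0.627 CPM in cells with microglia genes and had 0 UMIs in the class II-low and perivascular cells.

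Other genes of the monocyte list are given next to Ccr2. Plac8, a gene of blood monocytes, was at 87.2 CPM in light-damaged class II-high cells and 1.16 CPM (1 UMI) in control ones, a ratio of 75.3 with an interval of 13.4 to 2987. Ms4a4c, a membrane gene of Ly6C-high monocytes, had a UMI in 69.0% of light-damaged and 15.6% of control class II-high cells. S100a6 was at 110 CPM in light-damaged and 4.63 CPM in control class II-high cells. Ly6c2, the Ly6C antigen of classical monocytes, was at 49.6 CPM in 10.7% of light-damaged class II-high cells and had 0 UMIs in control ones, at least 14.3-fold higher against a floor of 3 UMIs. Classical monocyte genes of the circulating state were near 0 in light-damaged class II-high cells, with Chil3 at 2.65 CPM and Vcan at 0.379 CPM. Lyz2, the lysozyme gene shared by monocytes and macrophages, was at 10359 CPM in light-damaged and 8280 CPM in control class II-high cells. Of the patrolling monocyte genes, Ace had 0 UMIs in both libraries, and Spn, Itgal and Treml4 stood between 1.16 and 14.8 CPM.

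Flt3, Zbtb46, Xcr1, Clec9a and Cd209a were near 0 in class II-high cells of both libraries, while some other genes of the dendritic lists were not. Flt3, the growth factor receptor of conventional dendritic cells, had 11 UMIs in 3.10% of light-damaged class II-high cells and 0 UMIs in 122 control ones, a count that allows a share of cells with a UMI of up to 2.46% (3 counts of 122). Zbtb46, their lineage factor, was at 1.52 CPM in light-damaged and 2.31 CPM in control class II-high cells. Xcr1 was at 1.14 CPM in light-damaged and 2.31 CPM in control class II-high cells, and Clec9a had 0 UMIs in light-damaged and 1 UMI in control ones. Cd209a, a gene of type 2 and monocyte-derived dendritic cells, had a UMI in 0.690% of light-damaged class II-high cells and in none of the control ones. Ccr7, the receptor for migration to lymph nodes, was at 25.8 CPM in 4.14% of light-damaged class II-high cells, with 2.31 CPM in control ones. Itgax, which encodes CD11c and is shared with macrophages, was at 64.0 CPM in light-damaged and 13.9 CPM in control class II-high cells, a ratio of 4.61 (2.57 to 9.10). Itgax was also higher in light-damaged class II-high cells than in the class II-low cells of that library, at 16.1 CPM. At least 50 CPM in either library was reached by 3 of 10 type 1 and 1 of 10 type 2 dendritic genes. It was also reached by 2 of 9 migratory and 2 of 6 plasmacytoid genes. In light-damaged over control class II-high cells, Naaa and Bst2 were 2-fold higher and Fscn1 2-fold lower, beside 9.20% and 11.7% of all genes. Fscn1 was at 17.05 and 122 CPM in light-damaged and control class II-high cells, below 180 and 328 CPM in cells with microglia genes. Naaa was also 2-fold lower in class II-high cells than in cells with microglia genes, in both libraries. Bst2 was 2-fold higher than in those cells, and is also counted among the type I interferon genes below. In cells with microglia genes Bst2 was 2-fold higher in the light-damaged than in the control library.

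**Figure D2:**
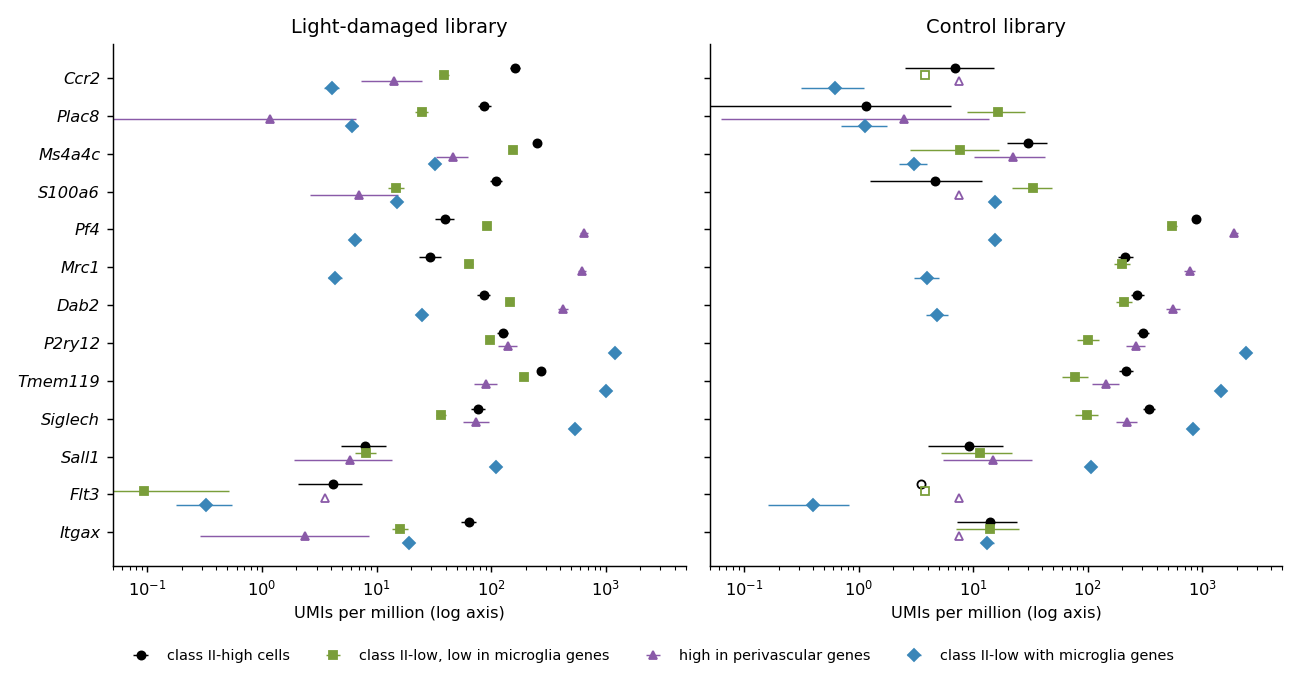
Level of identity genes in CPM (log axis) in 4 sets of cells of the light-damaged library (left) and the control library (right), with exact 95% intervals of counting error. Open symbols have 0 UMIs and are drawn at the floor of 3 UMIs. The class II-low set low in microglia genes had no perivascular limit and overlaps the set high in perivascular genes. Ccr2, Plac8, Ms4a4c and S100a6 are higher in the light-damaged class II-high cells than in the other sets of that library, while Pf4 and Mrc1 in the control class II-high cells lie above the cells with microglia genes.

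In the control library, most class II-high cells carried perivascular UMIs, although they were under the perivascular limit. The rule used these genes, so their values are given as a description. At least 1 UMI of the perivascular rule genes was seen in 59 of 290 light-damaged class II-high cells (20.3%) and in 87 of 122 control ones (71.3%). Mrc1, the mannose receptor, had a UMI in 17.6% of light-damaged and 63.9% of control class II-high cells, at 29.6 and 213 CPM. Cells with microglia genes had Mrc1 at 4.35 CPM in the light-damaged library and 3.94 CPM in the control library. The control cells are therefore named by the rule and not as cells outside the perivascular type.

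Of 7 perivascular genes outside the rule with at least 50 CPM in either library, 4 were 2-fold lower, 1 was 2-fold higher and 2 were neither in light-damaged over control class II-high cells. Of all 2392 genes tested, 9.20% were 2-fold higher and 11.7% 2-fold lower. Pf4, Cd36 and Gas6 passed that minimum through the control cells alone. Pf4, a chemokine gene of border macrophages on chromosome 5 (90772435 to 90773383), was at 39.4 CPM (32.2 to 47.8) in light-damaged and 878 CPM (817 to 943) in control class II-high cells, 22.3-fold lower (18.1 to 27.6) in the light-damaged cells. Pf4 had a UMI in 13.1% of light-damaged and 77.9% of control class II-high cells, and in 5.52% and 64.4% after thinning. Perivascular cells had Pf4 at 651 CPM in the light-damaged library and 1906 CPM in the control library. Class II-low cells low in microglia genes, which include perivascular cells, had 92.0 CPM in the light-damaged and 541 CPM in the control library. Restricted to myeloid cells, a choice made after seeing the data, they had 97.1 and 911 CPM. Pf4 was thus lower in the light-damaged library in these sets too. Dab2, an endocytic adaptor, was at 86.4 and 270 CPM and Cd36, a scavenger receptor, at 7.58 and 66.0 CPM in light-damaged and control class II-high cells. Wfdc17 went the other way, with 786 CPM in light-damaged and 265 CPM in control class II-high cells. The 7 genes had a median log2 ratio of -1.64, against 0.15 over all genes tested.

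Without the cells that had any perivascular UMI, an alternative chosen after seeing the data, 231 light-damaged and 35 control class II-high cells were left. Pf4 was then at 20.1 CPM in the light-damaged cells and 231 CPM in the control cells. Ccr2 was at 29.5 CPM in those control cells, from the same 6 UMIs as before, 5 of them in 1 cell. The values that follow are again for all 290 light-damaged and 122 control class II-high cells. Of 9 general macrophage genes tested, 0 were 2-fold higher and Maf, Cd14 and C5ar1 were 2-fold lower in light-damaged class II-high cells, beside 9.20% and 11.7% of all genes. Ms4a7 was at 728 CPM in light-damaged and 661 CPM in control class II-high cells, and Adgre1, which encodes F4/80, at 385 and 326 CPM. Ms4a7 separated both from cells with microglia genes, at 73.2 CPM in the light-damaged library and 9.75 CPM in the control library. Cd14, the lipopolysaccharide co-receptor, was at 1825 CPM in light-damaged and 3723 CPM in control class II-high cells.

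Each class II-high cell was placed in the first class it met, in the order B cell, T, NK or neutrophil, microglia, dendritic and Ccr2. In the light-damaged library, B cell genes placed 5 of 290 cells, microglia genes (a rule sum of 10 or more per 10000) placed 49, dendritic genes (2 or more UMIs over 9 genes) placed 20, Ccr2 placed 141, and 75 met none. Of the control cells, microglia genes placed 59 of 122 cells, dendritic genes 0, Ccr2 1, and 62 met none. Irrespective of order, microglia genes were met by 17.2% (13.1 to 22.1) of light-damaged and 48.4% (39.2 to 57.6) of control class II-high cells. The class depends on its limit: at a sum of 20 it held 4.83% of light-damaged and 7.38% of control class II-high cells. Of the 22 light-damaged cells with dendritic genes, 10 had 2 or more different genes of that set, and Ccr7 was the most frequent, in 9 cells. The 5 light-damaged cells that met the B cell class had UMIs of Cd79b alone among the 4 genes of that class.

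UMIs of Ccr2 and of microglia genes occurred in the same cells of the light-damaged library. The microglia sum of its class II-high cells overlapped that of perivascular cells, as given above, so it is not read as microglial identity. Ccr2 had a UMI in 28 of the 50 class II-high cells with a microglia sum of 10 or more (56.0%, 41.2 to 70.0; median 10642 UMIs) and in 156 of the 240 others (65.0%, 58.6 to 71.0; median 8144 UMIs). Ccr2 and Pf4 occurred together in 25 light-damaged cells, Ccr2 without Pf4 in 159, Pf4 without Ccr2 in 13, and neither in 93. The 25 cells with both had a median of 12414 UMIs, above the 8146 of those with Ccr2 alone. Whether doublets or free RNA took part in cells with both Ccr2 and Pf4, or both Ccr2 and microglia genes, was not tested. Pf4 without Ccr2 was the main state in the control library, in 94 of 122 cells, with neither gene in 26.

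**Figure D3:**
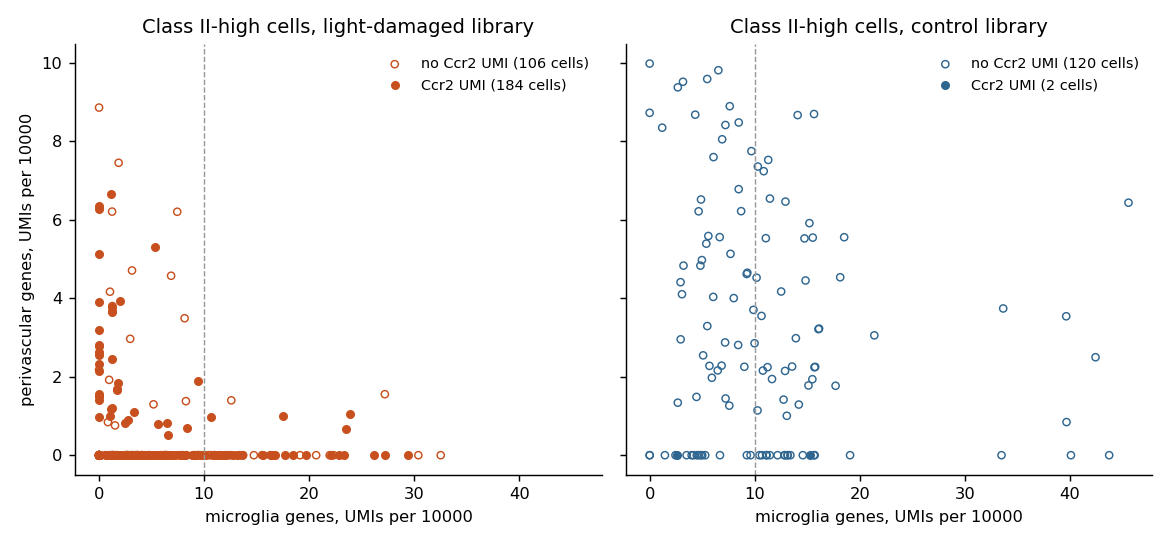
Each point is a class II-high cell, placed by its summed microglia rule genes (horizontal) and perivascular rule genes (vertical), both in UMIs per 10000, for the light-damaged library (left) and the control library (right). Filled points have a Ccr2 UMI (184 light-damaged and 2 control cells), and the dashed line marks a microglia sum of 10. Most light-damaged cells lie at a perivascular sum of 0, while 87 of the 122 control cells lie above 0.

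Other blood cells were scarce. Cd79a, Ms4a1 and Pax5 had 0 UMIs in class II-high cells of both libraries, and all 7 T and NK cell genes found had 0 UMIs. Of the neutrophil genes, S100a9 and Retnlg had 0 UMIs, and Csf3r, which microglia also express, was at 48.5 CPM in light-damaged and 74.1 CPM in control class II-high cells. The 6 rod genes summed to 104 CPM (91.9 to 117) in light-damaged and 477 CPM (432 to 525) in control class II-high cells. Cells with microglia genes had rod sums of 108 CPM in the light-damaged and 580 CPM in the control library. Bank1, a B cell adaptor gene, was at 3.41 CPM in light-damaged and 70.6 CPM in control class II-high cells, with 34.4% of the control cells carrying a UMI, and perivascular cells of the control library had 52.1 CPM.

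Light-damaged over control class II-high cells, 220 of 2392 genes tested (9.20%) were at least 2-fold higher and 281 (11.7%) at least 2-fold lower. The median log2 ratio over genes with 50 CPM in both was 0.14. Scaling by that median turned the higher share of the calls to 32.1% from 43.9%. Outside the rule genes, the largest ratios belonged to Ly6a, S100a6, Ccr2, Ccl5, Acp5, Zbp1, Vim, Lgals3, Ms4a4c, Irf7, Ifi27l2a and Cyp4f18. Ly6a, which encodes the antigen Sca-1, was at 102 CPM in light-damaged class II-high cells and had 0 UMIs in control ones, at least 29.4-fold higher against a floor of 3 UMIs. Ccl5, a chemokine for T cells and monocytes, was at 706 CPM in light-damaged and 47.5 CPM in control class II-high cells. Acp5, an acid phosphatase of activated macrophages, was at 330 CPM in light-damaged and 23.1 CPM in control class II-high cells. Lgals3, which encodes galectin-3, was at 1011 CPM in light-damaged and 120 CPM in control class II-high cells. In cells with microglia genes, light-damaged over control, Irf7 was 13.05-fold, Ifi27l2a 9.65-fold, Vim 8.84-fold and Ccl5 5.07-fold higher. Lgals3 was at 85.65 and 7.59 CPM there, and S100a6 at 15.1 and 15.5 CPM. Ly6a, Ccr2, Acp5, Zbp1, Ms4a4c and Cyp4f18 were under 50 CPM in those cells of both libraries.

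At the other end stood Vcam1, Mmp13, Pf4, Dnaja4, Csf2, Rmi2, Pnrc1, Gas6, Slc25a33, P2rx7, Ier5 and Hcar2. Vcam1, an adhesion molecule for leukocytes, was at 7.58 CPM in light-damaged and 477 CPM in control class II-high cells, 62.9-fold lower (40.2 to 104). Vcam1 had a UMI in 4.83% of light-damaged and 45.1% of control class II-high cells, and perivascular cells had 80.3 CPM in the light-damaged and 424 CPM in the control library. Mmp13, a collagenase, was at 12.5 CPM in light-damaged and 321 CPM in control class II-high cells, 25.6-fold lower (17.8 to 38.0). Csf2, which encodes the growth factor GM-CSF, was at 7.20 CPM in light-damaged and 104 CPM in control class II-high cells, with a UMI in 6.56% of the control cells. Gas6, a ligand for the clearance of dead cells, was at 33.0 CPM in light-damaged and 286 CPM in control class II-high cells, 8.67-fold lower (6.77 to 11.2).

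**Figure D4:**
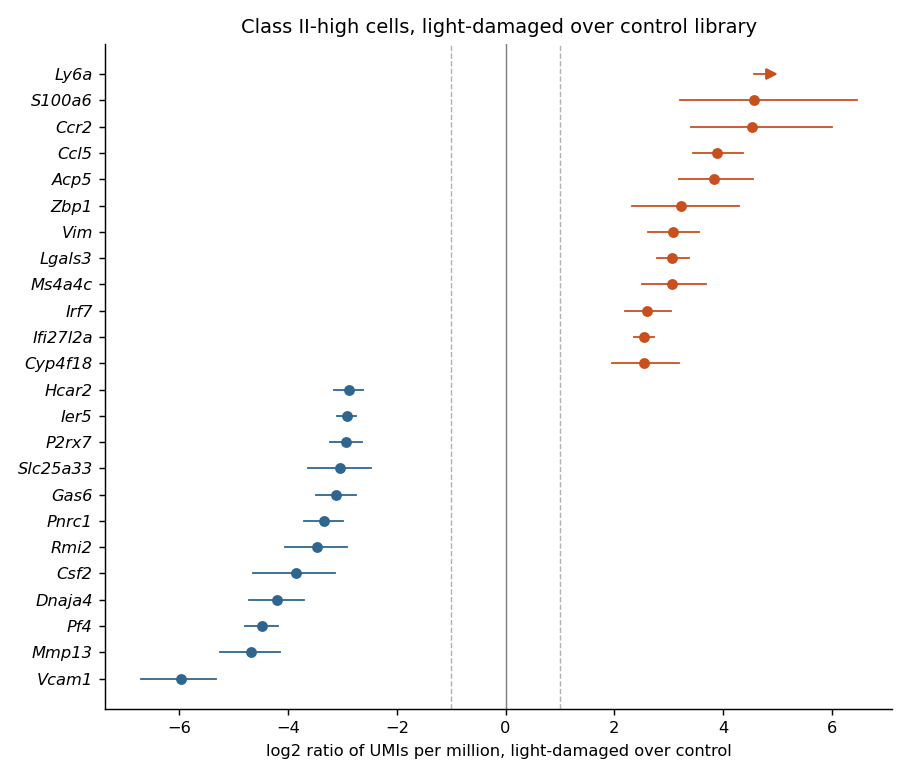
Log2 ratio of CPM in class II-high cells, light-damaged over control library, for the 12 genes with the highest and the 12 with the lowest ratio among genes with at least 100 CPM in the higher group. Lines are exact 95% intervals of counting error, dashed lines mark 2-fold, and the arrowhead of Ly6a is a lower bound because the control cells had 0 UMIs.

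Of 13 genes induced by type I interferon that were tested, 10 were 2-fold higher and 0 were 2-fold lower in light-damaged over control class II-high cells, beside 9.20% and 11.7% of all genes. Of the 10, Ifit1, Oasl2, Rsad2, Zbp1, Usp18 and Rtp4 reached 50 CPM in the light-damaged cells alone. Irf7, the amplifier of the interferon response, was at 360 CPM in light-damaged and 59.0 CPM in control class II-high cells, a ratio of 6.10 (4.60 to 8.25). Ifitm3, an antiviral membrane protein, was at 1869 CPM in light-damaged and 477 CPM in control class II-high cells, a ratio of 3.92 (3.55 to 4.35). In cells with microglia genes Irf7 was at 112 CPM in the light-damaged library and 8.61 CPM in the control library. Ifi27l2a, Ifitm3, Rtp4 and Bst2 of the 10 were also 2-fold higher in those cells, light-damaged over control. Of 11 class I pathway genes tested in light-damaged over control class II-high cells, B2m, Tap1 and Psmb9 were 2-fold higher and 0 were 2-fold lower. B2m was at 6735 CPM in light-damaged and 3251 CPM in control class II-high cells. Tap1 was also 2-fold higher in cells with microglia genes.

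Costimulation genes differed in both directions. Cd40, the receptor for T cell help, was at 80.3 CPM in light-damaged and 16.2 CPM in control class II-high cells, a ratio of 4.96 (2.89 to 9.23). Cd72 and Cd52 were also 2-fold higher, as they were in cells with microglia genes. Cd83, a maturation marker, was 3.57-fold lower (3.37 to 3.78), at 835 CPM in light-damaged and 2980 CPM in control class II-high cells. Cd86, a ligand of CD28, was at 135 CPM in light-damaged and 212 CPM in control class II-high cells. Of 12 lesion macrophage genes tested, Gpnmb, Lgals3, Fabp5, Vim, Plin2 and Acp5 were 2-fold higher and 0 were 2-fold lower, beside 9.20% and 11.7% of all genes. Gpnmb, Fabp5, Vim and Acp5 reached 50 CPM in the light-damaged cells alone. In cells with microglia genes Lgals3, Fabp5, Vim and Plin2 were 2-fold higher too, light-damaged over control. Lgals3, Fabp5 and Vim reached 50 CPM there in the light-damaged library alone, and Gpnmb and Acp5 in neither library. Apoe, the lipid carrier, was at 46394 CPM in light-damaged and 73219 CPM in control class II-high cells, while in cells with microglia genes it was at 15636 CPM in the light-damaged and 2464 CPM in the control library.

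Of 13 stress and immediate early genes tested, which tissue dissociation can induce, 8 were 2-fold lower, 0 were 2-fold higher and 5 were neither in light-damaged over control class II-high cells. Of all genes tested, 11.7% were 2-fold lower. Hspa1a, a heat shock gene, was at 9064 CPM in light-damaged and 23025 CPM in control class II-high cells, and in cells with microglia genes at 7287 CPM in the light-damaged and 13490 CPM in the control library. Ier5 was at 139 CPM in light-damaged and 1050 CPM in control class II-high cells, and in cells with microglia genes at 152 CPM in the light-damaged and 1062 CPM in the control library. The chemokine genes Ccl2, Ccl3, Ccl12 and Cxcl2 were 2-fold lower, and Ccl5, Ccl6 and Ccl9 were 2-fold higher. Cxcl2, a neutrophil chemokine, was at 5350 CPM in light-damaged and 16466 CPM in control class II-high cells, while cells with microglia genes had 273 CPM in the light-damaged and 253 CPM in the control library. Il1b, the interleukin-1β gene, was at 2693 CPM in light-damaged and 3085 CPM in control class II-high cells and did not reach 2-fold. The part of handling in these values was not tested.

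Against the class II-low cells low in microglia genes of the same library, the light-damaged class II-high cells differed in few genes. Of 2509 genes tested, 67 (2.67%) were 2-fold higher and 89 (3.55%) 2-fold lower, and scaling by the median of ratios, a log2 shift of -0.19, moved the higher share of the calls to 64.2% from 43.0%. Outside the class II genes, the highest ratios belonged to S100a6, Tnip3, Slamf7, Traf1, Tnfsf9, Plbd1, Ccr2, Clec4a1, Il10 and Ly6a. Perivascular cells of that library had Tnfsf9 at 209 CPM and Clec4a1 at 88.55 CPM, within 2-fold of class II-high cells. The other genes just named were more than 2-fold lower in perivascular than in class II-high cells. Tnfsf9, the ligand of the costimulator 4-1BB, was at 278 CPM in class II-high and 52.3 CPM in class II-low cells, a ratio of 5.31 (4.75 to 5.94). Plbd1 was at 269 CPM in class II-high and 57.4 CPM in class II-low cells, a ratio of 4.69. Il10, the anti-inflammatory cytokine, was at 180 CPM in class II-high and 48.2 CPM in class II-low cells, with a UMI in 14.8% of class II-high cells.

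Within the light-damaged library, 7 of 13 lesion macrophage genes tested were 2-fold lower in class II-high than in class II-low cells, 1, Acp5, was 2-fold higher and 5 were neither. Of all genes tested in that comparison, 3.55% were 2-fold lower and 2.67% 2-fold higher. Lpl passed the minimum through the class II-low cells alone. Spp1, which encodes osteopontin, was at 390 CPM in class II-high and 3685 CPM in class II-low cells, 9.45-fold lower (8.88 to 10.1). Gpnmb, a gene of lipid-laden macrophages, was at 81.5 CPM in class II-high and 735 CPM in class II-low cells. Fabp5, a fatty acid binding protein, was at 97.0 CPM in class II-high and 981 CPM in class II-low cells, and Igf1, a growth factor outside the list, at 4.17 CPM in class II-high and 103 CPM in class II-low cells. Ctsd, a lysosomal protease, was at 2499 CPM in class II-high and 11623 CPM in class II-low cells. Lgals3 was within 2-fold, at 1011 CPM in class II-high and 1134 CPM in class II-low cells. Syngr1, Gas6, Hist1h2bc, Fcrls, Vat1 and Pmp22 were also among the lowest 12 ratios.

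The class II-low cells of the control library were not all myeloid. Gngt1 was at 50.9 CPM in class II-high and 5006 CPM in class II-low cells, which had a median of 4001 UMIs per cell. Of 3016 genes tested, 159 (5.27%) were 2-fold higher and 802 (26.6%) 2-fold lower in class II-high cells. The lowest ratios belonged to vascular, glial and rod genes such as Cldn5, Rgs5, Clu and Gngt1. When both comparison sets were restricted to myeloid cells, a choice made after seeing the data, 70 control cells were left and the counts were 50 higher and 98 lower. Against the unrestricted class II-low cells, the highest ratios outside class II genes belonged to Lepr, Mmp13, Rmi2, Tnfsf9, Gpr65, Il1rn, Klra2, Stap1 and Vcam1. Lepr was at 169 CPM in 4.10% of class II-high cells. Tnfsf9 was at 176 CPM in control class II-high cells, 25.5 CPM in all class II-low cells and 46.0 CPM in the myeloid ones. Il1rn, the interleukin-1 receptor antagonist, was at 380 CPM in control class II-high cells, 81.7 CPM in all class II-low cells and 138 CPM in the myeloid ones.

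Against the cells with microglia genes, 210 of 2648 genes tested (7.93%) were 2-fold higher and 337 (12.7%) 2-fold lower in class II-high cells of the light-damaged library. In the control library 318 of 2720 genes (11.7%) were 2-fold higher and 475 (17.5%) 2-fold lower. The highest ratios of the light-damaged library belonged to Clec4e, Tnip3, Slamf7, Stap1, Il10, Plbd1, Cxcl1 and Ccr2, and those of the control library to Csf2, Mmp13, Areg, Klra2, Ifi203, Stap1, Mndal and Cxcl1. Light-damaged perivascular cells had Cxcl1 at 2085 CPM, above the 620 CPM of class II-high cells. Clec4e, at 88.55 against 133 CPM, and Stap1, at 82.65 against 109 CPM, differed less than 2-fold. Tnip3, Slamf7, Il10, Plbd1 and Ccr2 were lower in those perivascular cells, at 21.25, 3.54, 11.8, 11.8 and 14.2 CPM. Control perivascular cells had Ifi203 at 479 and Mndal at 290 CPM, above the 221 and 133 CPM of control class II-high cells. Csf2, Areg, Stap1 and Cxcl1 differed less than 2-fold between these sets. Mmp13 and Klra2 were lower in perivascular cells, at 29.8 and 27.3 CPM against 321 and 105 CPM. Median scaling, a log2 shift of -0.15 in the light-damaged and -0.34 in the control library, moved the higher share of calls to 49.5% from 38.4% and to 64.7% from 40.1%. All 10 microglia genes outside the rule were 2-fold lower in light-damaged class II-high cells. Among control cells 8 of 10 were, with C1qa within 2-fold and Fcrls 2-fold higher. The cells compared with were chosen by other microglia genes, so these counts are a description. Sall1 was among those that passed the 50 CPM minimum through the cells with microglia genes alone, in both libraries. Of the inflammatory genes tested, 8 of 11 in the light-damaged library and 10 of 10 in the control library were 2-fold higher. Il10 and Il1rn were among those that passed the 50 CPM minimum through the class II-high cells alone, in both libraries. Il1b was at 2693 CPM in class II-high cells and 248 CPM in cells with microglia genes of the light-damaged library. Il10 of the control library was at 164 CPM in class II-high cells and 1.88 CPM in cells with microglia genes. Runx3, a transcription factor, stayed under the 50 CPM filter, with 43.2 CPM in class II-high cells and 3.51 CPM in cells with microglia genes of the light-damaged library, and 40.5 CPM in class II-high cells and 0.228 CPM in cells with microglia genes of the control library.

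Class II-high cells were not uniform across their own class II range. In the light-damaged library, H2-DMb1 was at 327 CPM in the 48 cells with a class II sum of 100 to 200, 397 CPM in the 101 cells of 200 to 400, 630 CPM in the 105 cells of 400 to 800, and 1032 CPM in the 36 cells of 800 or more. Over the same bands Apoe was at 61152, 47418, 44268 and 24236 CPM, and Lgals3 at 653, 943, 1099 and 1591 CPM. Pf4 was at 103, 39.3, 18.1 and 0 CPM, while Ccr2 stood between 147 and 198 CPM in all 4 bands. In the control library, H2-DMb1 was at 229, 346, 639 and 753 CPM, and Apoe at 60094, 70742, 78684 and 89597 CPM, with 20, 40, 56 and 6 cells in the bands. Apoe thus ran down with class II in the light-damaged library and up in the control library, also without the band of 6 cells. P2ry12 was at 502, 339, 215 and 100 CPM over the control bands, and Siglech at 310, 328, 376 and 226 CPM. Class II shares the total UMIs with every other gene in these values, and the bands have no replicate.

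**Figure D5:**
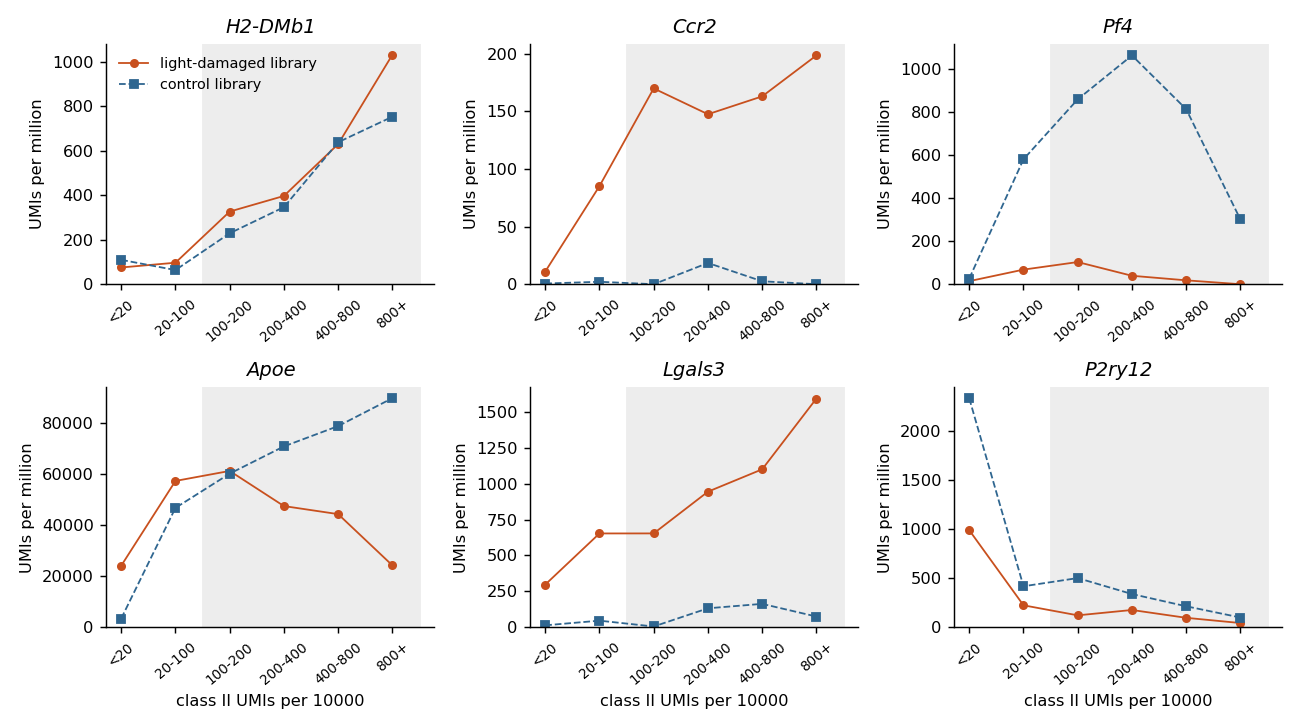
Level of 6 genes in CPM by band of the class II sum (UMIs per 10000), for cells under the perivascular limit of the light-damaged library (orange circles) and the control library (blue squares). The shaded bands are the class II-high cells, and the last control band holds 6 cells. Over the class II-high bands Ccr2 stays between 147 and 198 CPM in the light-damaged library, and Pf4 lies at 103, 39.3, 18.1 and 0 CPM.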

How the data were processed

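The values are UMI counts per gene and cell barcode, which the authors deposited as 1 filtered 10x matrix per library. Cell Ranger 2.0.0 and the mouse build mm10 are named, per the submitters' processing notes, and no other upstream setting was found in the labels or file headers. The cells and all 29 gene lists (274 of 279 symbols found) were chosen with earlier results of these data known. Barcodes were kept from 300 genes up and to 10% mitochondrial UMIs, and UMIs were summed per library and cell set and divided by the set's total (CPM). Shares have Clopper-Pearson and levels exact Poisson 95% intervals, and ratios the exact interval of a ratio of Poisson counts (Python 3.11.15, scipy 1.17.1, numpy 2.4.6, pandas 2.3.3). Cells are not replicates, so no test was run. Genes with at least 50 CPM in either set were called at 2-fold, and a set at 0 UMIs was given a floor of 3 UMIs. Genes named were those of the lists past that filter or at or near 0, and the 12 highest and 12 lowest ratios of each comparison at 100 CPM or more, without rule, mitochondrial, ribosomal and predicted genes. Doublets were scored with Scrublet in scanpy 1.11.5. The contrast code was tested on simulated data. Promoters came from RefSeq, with 8 of 9 class II genes asked for found. Some genes that the rule for naming would allow are not reported here.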

Additional observations from a re-analysis of the deposited data

Results flagged for a closer look

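Ccl5 and Spp1 lay on opposite sides of the class II-low cells low in microglia genes in the 2 libraries, and the difference between the libraries was not tested. Ccl5, the chemokine gene, had a log2 ratio of class II-high over class II-low cells of 1.69 in the light-damaged library and -2.14 in the control library. With the comparison restricted to myeloid cells, chosen after seeing the data, the control value was 0.20. Spp1, the osteopontin gene, had a log2 ratio of -3.24 in the light-damaged library and 1.12 in the control library, where 17.2% of class II-high cells had a UMI of it. Restricted to the same myeloid cells, Spp1 in the control library was at 409 CPM in class II-high and 334 CPM in class II-low cells, within 2-fold.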

How the results depend on the processing

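With 1 library per group, intervals do not cover the spread between mice. No paired analysis was possible because each group had 1 library and the labels number no replicates. Of 128 values of 20 main results under the alternatives, 85 stayed within the set bounds and 43 moved, and of 1125 values of 125 ratios of single genes 912 stayed, 212 moved and 1 reversed. The limits of no perivascular UMI and of myeloid comparison cells were chosen after seeing the data, and the cause of a move was not tested. The share of class II-high cells in the light-damaged library was 5.00% at a class II sum of 50 and 3.56% at 200, and in the control library 2.20% at a perivascular limit of 5. At a class II sum of 200, Pf4 was 25.8 CPM in light-damaged cells and the microglia sum 1124 CPM in control cells. With the mean of CPM per cell, the microglia sum was 542 CPM in light-damaged and 1117 CPM in control cells, Ccr2 22.0 CPM and Pf4 816 CPM in control cells, and dendritic genes 49.5 CPM in light-damaged cells. Without high doublet scores the light-damaged microglia sum was 538 CPM. With control cells held to the lowest depth of the light-damaged library, their Ccr2 was at 1.19 CPM. Without perivascular UMIs, light-damaged cells had Pf4 at 20.1 CPM and dendritic genes at 71.2 CPM, and control cells had the microglia sum at 1098 CPM, Ccr2 at 29.5 CPM, Pf4 at 231 CPM and dendritic genes at 24.6 CPM. Light-damaged over control, 1210 genes were higher and 1473 lower with no CPM minimum, and 116 and 181 at 100 CPM. Class II-high over class II-low cells of the light-damaged library, 962 were higher and 1599 lower with no minimum, 43 lower at 100 CPM and 53 lower with median scaling. In the control library 591 were higher and 4032 lower with no minimum, 103 and 352 at 100 CPM, 50 and 98 against myeloid cells, and 301 higher with means per cell. Against myeloid cells Ccl5 reversed to a log2 ratio of 0.20 in the control library. The class with microglia genes held 38.6% of light-damaged and 77.9% of control cells at a sum of 5, 4.83% and 7.38% at 20, and 26.2% and 58.8% after thinning. The class with dendritic genes held 18.3% of light-damaged and 6.56% of control cells at 1 UMI, and 2.45% and 0% after thinning.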
